A study of Mus musculus with 21 samples.

Results

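Potassium channel genes were taken as every gene of the deposited count table whose symbol starts with Kcn followed by letters and a number. The rule found 96 of 24047 genes: 93 that code for a channel subunit or an accessory protein, and 3 that do not code for protein (Kcnq1ot1, Kcnmb4os1 and Kcnd3os). All 21 libraries came from SMB21, a culture line of mouse medulloblastoma of the Sonic hedgehog (SHH) subgroup, so each result describes this line alone. In the groups DMSO 2 h and DMSO 24 h the cells received the solvent for 2 h or 24 h, and in JNJ 2 h and JNJ 24 h they received JNJ (quisinostat), an inhibitor of histone deacetylases (HDACs), for the same times. In the groups shLuc, shHdac1 and shHdac2 the cells received a virus with a short hairpin RNA (shRNA) against luciferase, Hdac1 or Hdac2 and were selected with puromycin. Each of the 7 groups had 3 libraries. The dose of JNJ, the time after infection and the number of hairpins per gene were not stated.

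Potassium channels let potassium ions cross the membrane, and they hold the resting potential and end the action potential. Voltage-gated (Kv) channels open on depolarisation, inward rectifiers (Kir) stabilise the resting potential, two-pore-domain (K2P) channels carry a steady leak, and calcium- or sodium-activated channels couple the potassium current to those ions. Accessory subunits change the gating and the surface level of the pore-forming proteins. Cerebellar granule neurons, the lineage from which SHH medulloblastoma arises, are known for currents of the Kv1, Kv3 and Kv4 families and for a leak through the channels of Kcnk3 and Kcnk9.

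Of the 96 genes, 40 belong to the voltage-gated class, 16 are accessory, 15 are inward rectifiers, 14 are K2P genes and 8 are calcium- or sodium-activated. A filter on low counts (edgeR's filterByExpr, with a level near 0.278 counts-per-million (CPM) in the JNJ and DMSO libraries and 0.374 CPM in the shRNA libraries) left 69 for tests of JNJ and 62 for tests of the hairpins. Neither test could be made for 27 genes, among them Kcnmb3 and Kcnv1, which had no count in any library, and Kcnk9, whose highest level was 0.158 CPM. Of these 27, 16 had over 3 counts in at least 1 library, and Kcns1 reached the highest level, 0.552 CPM in JNJ 24 h. Total counts per library were 23094799 to 39341784, so the floor of 3 counts corresponded to 0.0776 to 0.126 CPM. The granule lineage markers Atoh1, Zic1, Zic2, Barhl1, Pax6, Neurod1, Gli1 and Ptch1 were all at 1 CPM or more on average in every group. Microglial markers summed to at most 0.232 CPM in any library, and the endothelial gene Cldn5 was at 0 in all of them. The 4 endothelial markers summed to 0.5925 to 9.861 CPM in DMSO 24 h and 3.58 to 4.96 CPM in JNJ 24 h, and the highest DMSO sum was mostly Cdh5, which stood at 1.07, 9.45 and 0.282 CPM in DMSO 24 h. Kdr, of the same list, rose with JNJ at 2 h (adjusted p = 0.0336) and at 24 h, from 0.317, 0.104 and 0.0846 to 1.97, 2.24 and 3.35 CPM (adjusted p = 0.000442). Over the same groups the 4 oligodendrocyte markers summed to 23.95 to 29.09 CPM and 42.95 to 60.9 CPM, with Mog at 0 in JNJ 24 h.

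In DMSO the channel RNA was concentrated in few genes. Per kilobase of exon, Kcne1l, Kcnip3, Kcnd3, Kcna2 and Kcnh2 were among the 6 highest coding genes in DMSO 2 h. Those 6 together held 66.6% of the summed level per length of the 93 coding genes. Kcne1l, an accessory subunit of the Kcne family, stood at 48.8 ± 24.5 CPM per kb (SD, n = 3). Kcnip3, which codes for a calcium-binding partner of Kv4 channels, stood at 9.94 ± 1.81 CPM per kb, and Kcnd3, a pore-forming Kv4 gene, at 9.57 ± 3.07 CPM per kb. Kcna2, of the Kv1 family, stood at 6.63 ± 1.89 CPM per kb and Kcnh2, the hERG-type channel, at 5.81 ± 3.18 CPM per kb. The order from Kcnip3 to Kcnh2 is not firm, because the SDs of neighbours overlap. Kcne1l itself varied widely, with 109, 82.3 and 34.5 CPM in the 3 DMSO 2 h libraries and 36.6, 98.4 and 52.1 CPM in the DMSO 24 h libraries.

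The same 6 genes led in DMSO 24 h, in another order, with 65.5% of the summed level per length. After 24 h of JNJ the 6 leading genes held 55.7% and included Kcne1l, Kcnk3, Kcnh2, Kcnip3 and Kcnd3, and Kcna2 had moved from rank 2 in DMSO 24 h to rank 10. The number of genes at 1 CPM per kb or more was 22 in DMSO 24 h and 30 in JNJ 24 h. Summed over the 93 coding genes, the level was 766 ± 35.1 CPM in DMSO 24 h and 925 ± 86.8 CPM in JNJ 24 h (SD, n = 3 each), and the libraries did not overlap. At 2 h it was 643 ± 113 CPM with DMSO and 947 ± 348 CPM with JNJ, with overlapping libraries. In bulk RNA, fewer cells of a type and less RNA per cell cannot be told apart.

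**Figure D1:**
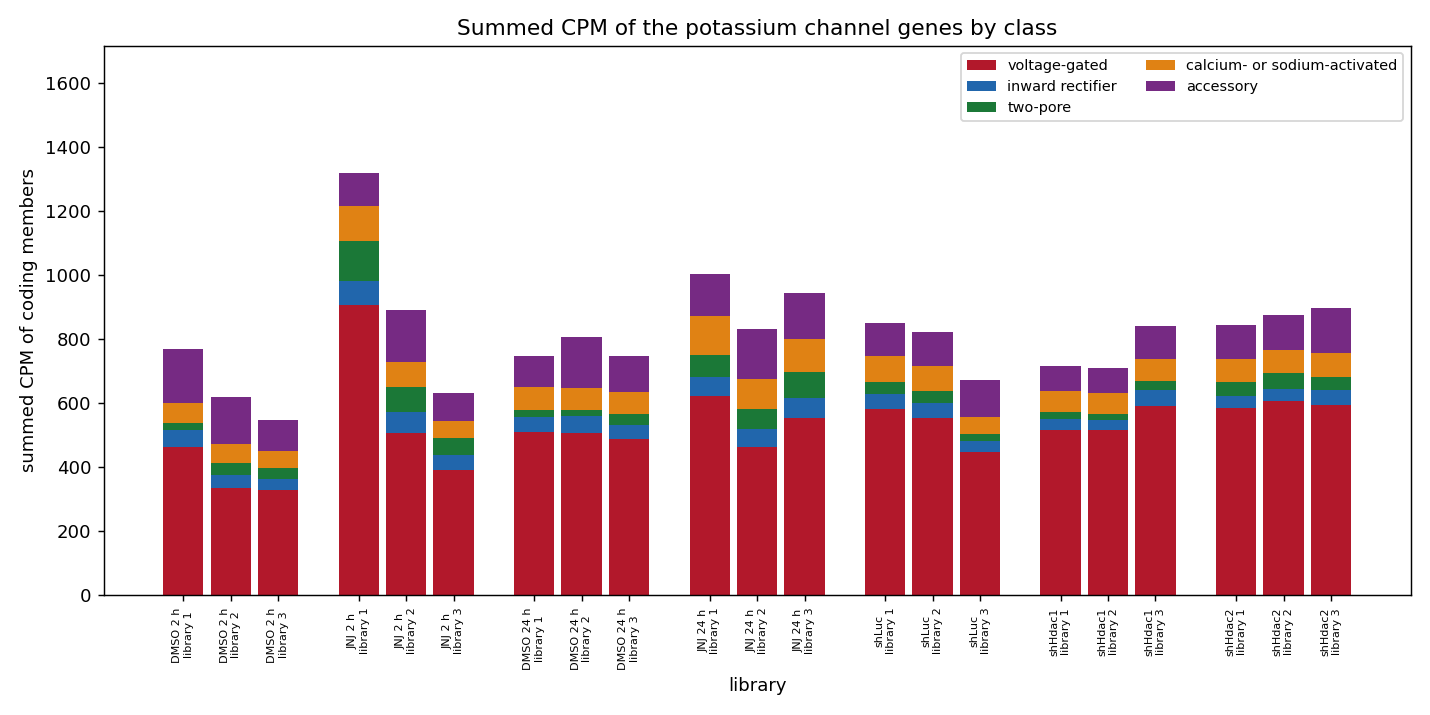
Summed CPM of the 93 coding potassium channel genes in each of the 21 libraries, stacked by class (y axis: CPM; x axis: libraries by group). JNJ 2 h library 1 has the highest sum, 1319 CPM, against 631 CPM in library 3 of the same group, and the shRNA libraries were scaled apart from the JNJ and DMSO libraries.

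A subset of the channel genes rose with JNJ within 2 h and a larger subset by 24 h, in several families at once. Differences were tested with edgeR's two-sided quasi-likelihood test on raw counts, with Benjamini-Hochberg adjustment across every tested gene, and called at an adjusted p under 0.05. The labels do not say whether the 3 libraries of each group were grown as separate cultures, so p-values reflect variation among these libraries that may be only technical. At 2 h, 9 of 69 tested channel genes rose (among them Kcna1, Kcnab3, Kcng1, Kcnh4, Kcnj12, Kcnj4, Kcnk3 and Kcnn3), none fell and 60 were not called. Among all 14467 genes tested, 9.11% rose and 4.59% fell at 2 h (1318 and 664 genes, and 1089 and 909 with upper-quartile scaling). At an unadjusted p under 0.05 there were 21 of 69 channel genes and 4199 of 14467 genes in either direction. DESeq2 called 14 channel genes, all higher, and 1723 genes higher and 1066 lower in all. The median log2 change was 0.44 over the 69 channel genes and 0.03 over all genes tested. At 24 h, 21 rose, 3 fell and 45 were not called, while 18.1% of all genes rose and 15.1% fell (2613 and 2178 genes, against 2974 and 1687 with upper-quartile scaling and 3170 and 1470 with library totals alone). These scalings moved the median log2 change of all genes from 0.01 to 0.12 and 0.17. The median log2 change at 24 h was 0.05 over the channel genes and 0.01 over all genes tested.

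Several tested genes were low in DMSO. Of the 69, 54 reached the filter level in all 3 DMSO 2 h libraries, and 7 of these 54 rose at 2 h, beside 9.43% of all genes that reached it there. Likewise 54 reached it in all 3 DMSO 24 h libraries; 14 of them rose and 3 fell at 24 h, beside 15% of such genes of any kind that rose. The remaining 7 that rose at 24 h (Kcna1, Kcna5, Kcna6, Kcna7, Kcnc4, Kcng3 and Kcnh6) had at least 1 DMSO 24 h library below the filter level. Of the JNJ and DMSO groups, only JNJ 24 h had all 3 libraries at the level for Kcna5, Kcna6, Kcna7 and Kcnh6. Such genes entered the test through the group where they were high, so a rise was favoured and a fall could hardly be called. The filter works on totals without TMM scaling, so a library of Kcnh6 printed below at 0.282 CPM fell short of it. By DMSO 24 h level, 11 of 23 tested channel genes under 1 CPM rose (47.8%, against 39.7% of all genes in that range). That range holds the genes that entered the test through JNJ 24 h, and 0 of the 23 fell (1.83% of all genes there). From 1 to 5 CPM 5 of 21 rose (23.8%, against 26.5%), from 5 to 20 CPM 4 of 16 (25.0%, against 23.3%) and over 20 CPM 1 of 9 (11.1%, against 8.95%). The share of channel genes was not tested against that of all genes in any of the 4 ranges.

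**Figure D2:**
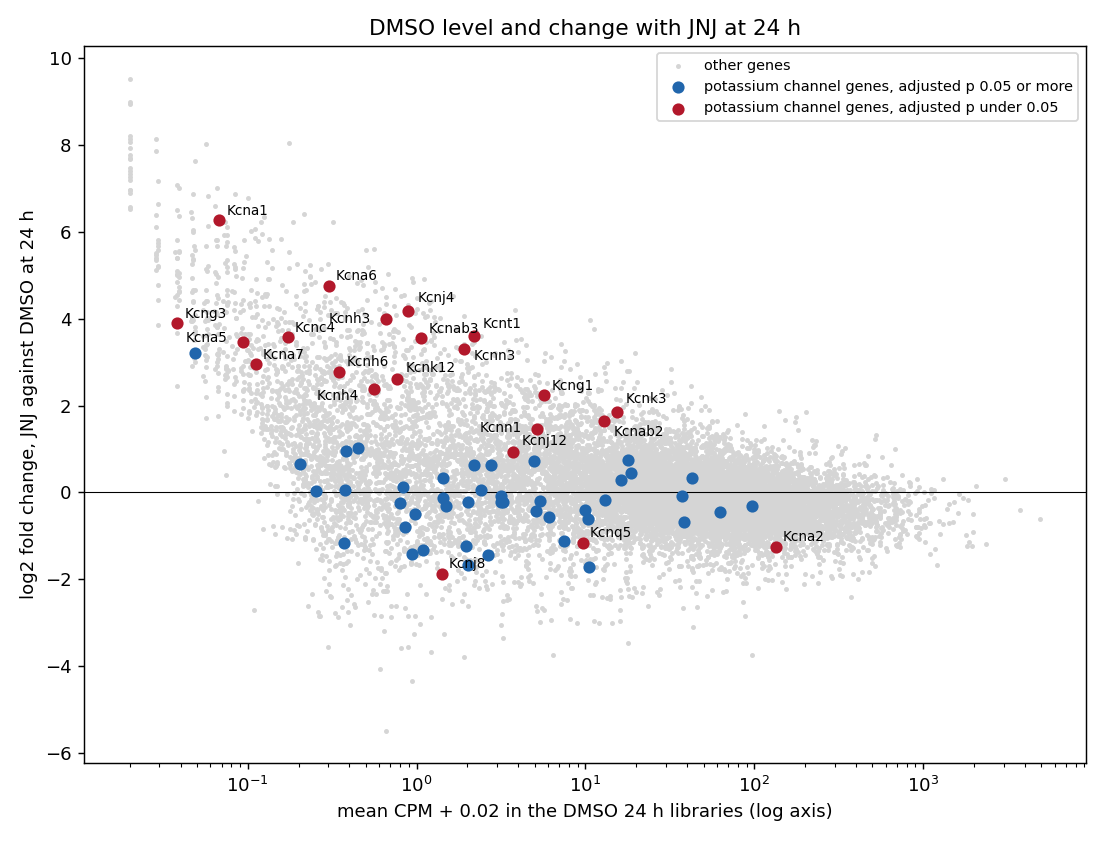
Mean level in DMSO 24 h (x axis, CPM plus 0.02, log axis) against the log2 fold change with JNJ at 24 h (y axis) for tested genes. Genes whose values are not reported here were left out, so 65 of the 69 tested channel genes are drawn. Grey points are other genes, blue points 43 channel genes not called and red points 22 called; most of the named genes that rose had under 5 CPM in DMSO, while Kcna2, which fell, was the highest channel gene by CPM.

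All 9 genes that rose at 2 h were also among the 21 that rose at 24 h, which is 42.9% of the 21. Over all genes, 675 rose at both times, 51.2% of those that rose at 2 h and 25.8% of those that rose at 24 h. At 2 h the JNJ libraries differed among themselves: library 1 was the highest of the group for 47 of the 69 tested genes and library 3 the lowest for 41. For the 9 genes called at 2 h, library 1 was highest in 8. The 8 granule lineage markers summed to 1466 to 1501 CPM in DMSO 2 h and 758 to 1186 CPM in JNJ 2 h, with Atoh1 and Barhl1 called lower. At 24 h they summed to 1478 to 1577 CPM with DMSO and 846 to 1008 CPM with JNJ, with 4 called lower. The 6 astrocyte markers summed to 237 to 257 CPM in DMSO 2 h and 262 to 470.0 CPM in JNJ 2 h. Most of the sum in every one of these libraries was a single gene, Slc1a3. The part of these markers in the channel changes was not tested. The count of 9 became 6 without JNJ 2 h library 1 and 17 without JNJ 2 h library 3, all of them higher. Over all genes the calls moved the same way, to 693 higher and 350 lower without library 1 and to 2145 higher and 1220 lower without library 3.

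**Figure D3:**
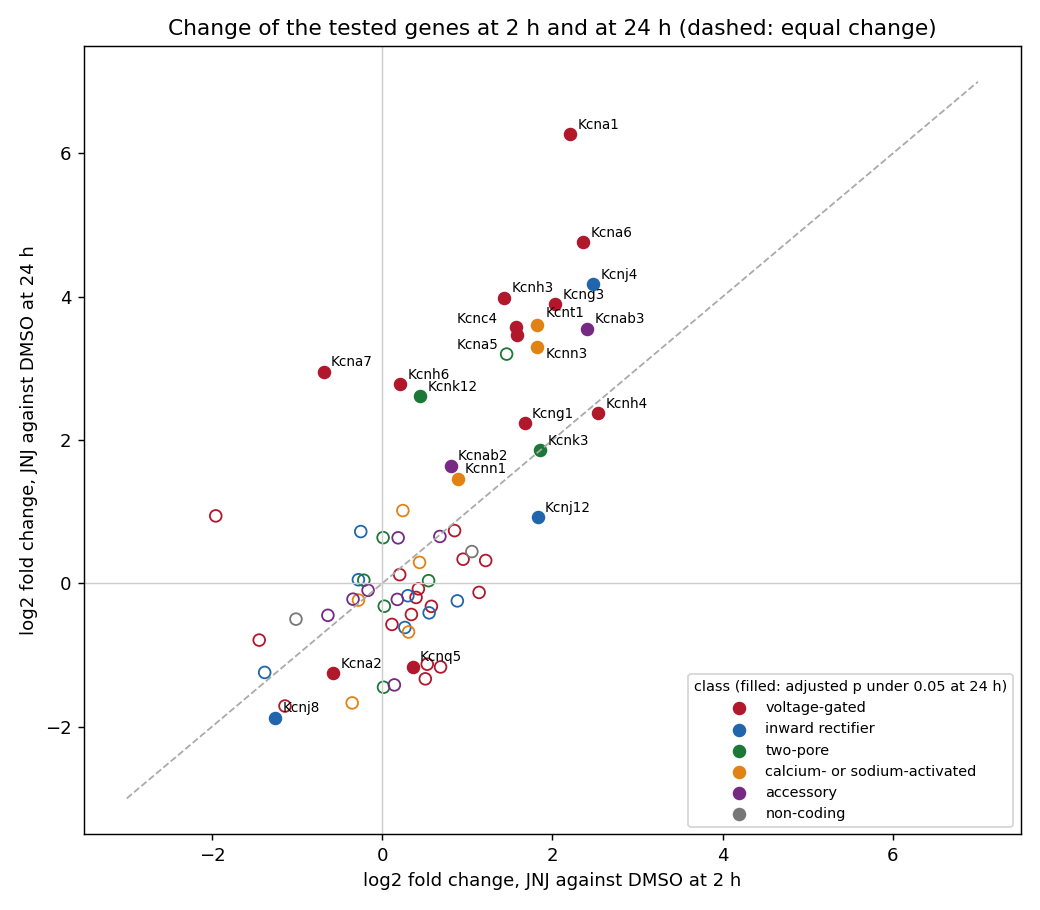
Log2 fold change with JNJ at 2 h (x axis) against that at 24 h (y axis) for 65 of the 69 tested genes, coloured by class, with filled points for an adjusted p under 0.05 at 24 h. Kcna1, Kcnh3 and Kcna7 lie far above the dashed line of equal change, while Kcnk3 and Kcnh4 lie near it.

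Promoter sequences are shown for 4 genes that frame the JNJ result: Kcna2, which fell, and Kcna6, which rose, from neighbouring groups of Kv1 genes on different chromosomes, and Kcnj4 and Kcnn3, which rose at both times. Each window runs from 250 bases before to 50 bases after the RefSeq transcript start in build GRCm38.p6, which is not the mm9 build of the counts. Letters are in lower case, and capitals mark CpG dinucleotides, the sites of DNA methylation. The Kcna2 window (chr3:107101317-107101616, plus strand) holds 31 CpGs.
Kcna2: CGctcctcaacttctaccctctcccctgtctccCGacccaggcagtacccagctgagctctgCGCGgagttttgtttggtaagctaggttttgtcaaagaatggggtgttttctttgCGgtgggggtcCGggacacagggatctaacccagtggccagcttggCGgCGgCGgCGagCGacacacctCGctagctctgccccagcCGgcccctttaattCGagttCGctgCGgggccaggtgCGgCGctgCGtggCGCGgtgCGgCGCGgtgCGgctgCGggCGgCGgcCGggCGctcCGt
The Kcna6 window (chr6:126740625-126740924, minus strand) holds 8 CpGs.
Kcna6: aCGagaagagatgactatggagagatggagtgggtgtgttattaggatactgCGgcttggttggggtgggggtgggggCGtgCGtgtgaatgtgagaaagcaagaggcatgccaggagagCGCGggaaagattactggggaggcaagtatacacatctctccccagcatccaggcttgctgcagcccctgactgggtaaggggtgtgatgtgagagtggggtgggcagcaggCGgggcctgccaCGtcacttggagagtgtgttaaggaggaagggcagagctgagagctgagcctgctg
The Kcnj4 window (chr15:79505192-79505491, minus strand) holds 41 CpGs, and the Kcnn3 window (chr3:89519914-89520213, plus strand) holds 11.
Kcnj4: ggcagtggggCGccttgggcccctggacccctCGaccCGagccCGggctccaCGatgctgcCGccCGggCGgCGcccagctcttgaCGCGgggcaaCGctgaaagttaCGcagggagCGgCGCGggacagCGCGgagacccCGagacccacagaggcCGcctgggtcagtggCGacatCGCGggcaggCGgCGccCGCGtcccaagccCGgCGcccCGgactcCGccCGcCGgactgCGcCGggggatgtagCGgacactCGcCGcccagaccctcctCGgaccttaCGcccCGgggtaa
Kcnn3: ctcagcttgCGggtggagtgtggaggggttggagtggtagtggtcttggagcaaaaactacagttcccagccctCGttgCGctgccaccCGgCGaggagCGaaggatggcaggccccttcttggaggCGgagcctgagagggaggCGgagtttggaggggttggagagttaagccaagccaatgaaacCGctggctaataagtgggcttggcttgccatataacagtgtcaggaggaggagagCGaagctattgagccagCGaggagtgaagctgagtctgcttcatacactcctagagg
RefSeq windows were found for 70 of the 96 genes, and 55 of these had a single window. The median over all 32851 promoter windows of the same length was 7 CpGs. Among channel genes with a single window, the median was 17 CpGs both for the 11 that rose at 24 h (range 4 to 49) and for the 25 that were tested and not called (range 1 to 48). Genes with CpG-rich and CpG-poor windows thus stood on both sides, and Kcnj12, which rose at both times, had 4. The GC box GGGCGG, searched on both strands and free to overlap CpGs, was present in 45 of 95 channel gene windows (47.4%) and in 35.7% of all windows. The cyclic AMP response element TGACGTCA was in 0 of the 95 and in 1.79% of all windows, and TATAAA was in 5 of the 95 and in 13.6% of all windows. These are matches of letters, not measured sites.

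Among the voltage-gated genes, 12 of 32 tested rose at 24 h and 2 fell, beside 18.1% and 15.1% of all genes. No class or family was tested as a set against all genes. The Kv1 family held genes that rose and a gene that fell. Kcna1 codes for a low-threshold Kv1 channel of axons. It stood at 0.0864, 0 and 0.0564 CPM in the DMSO 24 h libraries and at 4.54, 2.53 and 4.53 CPM in JNJ 24 h. These are 5 counts against 369, a ratio of 84.4 (95% counting interval 35.8 to 261), and the libraries did not overlap (log2 fold change 6.27 ± 0.81 (SE), adjusted p = 0.000202). At 2 h Kcna1 was at 0.114, 0.299 and 0.0863 CPM with DMSO and 1.32, 0.512 and 0.519 CPM with JNJ (log2 fold change 2.21 ± 0.68 (SE), adjusted p = 0.0482). The 2 h call was lost in 11 of 16 other settings, among them leaving out any 1 DMSO 2 h library or JNJ 2 h library 1 or 2.

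Kcna6, a further Kv1 gene, was at 0.317, 0.414 and 0.113 CPM in DMSO 24 h and at 10.6, 4.96 and 7.65 CPM in JNJ 24 h (log2 fold change 4.76 ± 0.89 (SE), adjusted p = 0.00159). All 3 JNJ 24 h libraries stood above 4 CPM and no DMSO library of either time reached 1 CPM. At 2 h its JNJ libraries spread from 0.115 to 2.47 CPM, and it was not called (adjusted p = 0.085). Kcna5 (11.1-fold on the fitted scale, adjusted p = 0.0176) and Kcna7 (7.76-fold, adjusted p = 0.00193) rose at 24 h from 8 and 10 counts over the DMSO 24 h libraries. The call for Kcna5 was lost without DMSO 24 h library 2 or 3 or JNJ 24 h library 1. Kcna5, Kcna1 and Kcna6 follow each other on chromosome 6 with no other protein-coding gene between them in the RefSeq gene order, and all 3 rose.

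Kcna2 moved the other way. It stood at 114, 119 and 169.7 CPM in DMSO 24 h and at 77.0, 42.4 and 49.4 CPM in JNJ 24 h, with no overlap (log2 fold change -1.25 ± 0.28 (SE), adjusted p = 0.0045). At 2 h the libraries were at 104, 61.8 and 70.7 CPM with DMSO and 67.8, 48.1 and 42.8 CPM with JNJ, which overlap, and the gene was not called (adjusted p = 0.184). Its neighbours on chromosome 3 were Kcna3, which was not called at 24 h (log2 fold change 0.12, adjusted p = 0.865), and Kcna10, which was too low to test. Per length, Kcna2 made up 95.2% of the Kv1 family in DMSO 24 h (range 94.2% to 96.4%) and 59.1% in JNJ 24 h (53.4% to 62.4%). Over the same groups Kcna6 went from 0.439% to 16.1% and Kcna1 from 0.0859% to 10.2%, without overlap between libraries. The family as a whole summed to 135 ± 30.8 CPM in DMSO 24 h and 70.5 ± 22.1 CPM in JNJ 24 h (SD, n = 3 each), so its total was lower although 4 of its 6 tested genes rose.

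The Kv3 genes code for channels of fast-firing neurons. Kcnc4, 1 of them, rose at 24 h from 0.0864, 0.259 and 0.113 to 2.23, 1.67 and 1.73 CPM (log2 fold change 3.58 ± 0.62 (SE), adjusted p = 0.00103). Kcnc1, which also codes for a Kv3 channel, was at 13.6, 22.8 and 17.3 CPM in DMSO 24 h and 30.4, 28.4 and 30.8 CPM in JNJ 24 h, and was not called (adjusted p = 0.0598). The highest DMSO library of Kcnc1 lay below its lowest JNJ library.

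In the EAG, ERG and ELK family of slowly gated Kv channels, 3 of 7 tested genes rose at 24 h, beside 18.1% of all genes. Kcnh3, an ELK gene of forebrain neurons, was at 0.950, 0.492 and 0.480 CPM in DMSO 24 h and at 9.98, 10.9 and 9.74 CPM in JNJ 24 h (log2 fold change 3.99 ± 0.49 (SE), adjusted p = 0.000143). The 3 JNJ 24 h libraries lay close together and far above DMSO. Kcnh4, also an ELK gene, rose at both times, from 0.342, 0.381 and 0.259 to 3.31, 1.61 and 0.837 CPM at 2 h (log2 fold change 2.54 ± 0.57 (SE), adjusted p = 0.0114) and from 0.403, 0.906 and 0.310 to 3.21, 2.98 and 2.29 CPM at 24 h (log2 fold change 2.38 ± 0.55 (SE), adjusted p = 0.00573). Without JNJ 2 h library 1 its 2 h call was lost. Kcnh6, an ERG gene, rose at 24 h from 0.288, 0.414 and 0.282 to 2.26, 1.54 and 3.04 CPM (log2 fold change 2.78 ± 0.50 (SE), adjusted p = 0.00133). Kcnh2, the most abundant gene of the family, was not called at either time (adjusted p = 0.117 at 2 h and 0.647 at 24 h).

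The silent Kv genes code for subunits that form channels only together with Kv2 subunits. Kcng1, one of them, rose at both times. Its libraries were at 4.30, 3.51 and 4.06 CPM in DMSO 2 h and 21.0, 9.25 and 7.62 CPM in JNJ 2 h (log2 fold change 1.68 ± 0.34 (SE), adjusted p = 0.00636). At 24 h they were at 5.96, 5.23 and 5.78 CPM with DMSO and 26.7, 21.8 and 31.5 CPM with JNJ (log2 fold change 2.24 ± 0.34 (SE), adjusted p = 0.000488). The 3 DMSO libraries of each time were tightly grouped, and no JNJ library overlapped them. Kcng3 also rose at 24 h, from 2 counts over the 3 DMSO 24 h libraries to 30, a ratio of 17.2 (95% counting interval 4.35 to 148), and its call was lost without DMSO 24 h library 3 or JNJ 24 h library 3. The Kv2 gene Kcnb2 was not called at 24 h (adjusted p = 0.0803). In the Kv4 family, Kcnd3 and Kcnd1 were not called at 24 h either (adjusted p = 0.531 and 0.886).

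The Kv7 genes carry the M-current, a brake on repetitive firing. Kcnq5 fell at 24 h, from 10.2, 6.11 and 12.5 to 4.69, 3.36 and 4.85 CPM (log2 fold change -1.16 ± 0.33 (SE), adjusted p = 0.0165), and every DMSO library lay above every JNJ library. The call for Kcnq5 was lost without DMSO 24 h library 3 or JNJ 24 h library 2. Kcnq3 was not called at 24 h (log2 fold change -1.71, adjusted p = 0.0905). It spread from 7.17 to 16.2 CPM within DMSO 24 h alone.

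**Figure D4:**
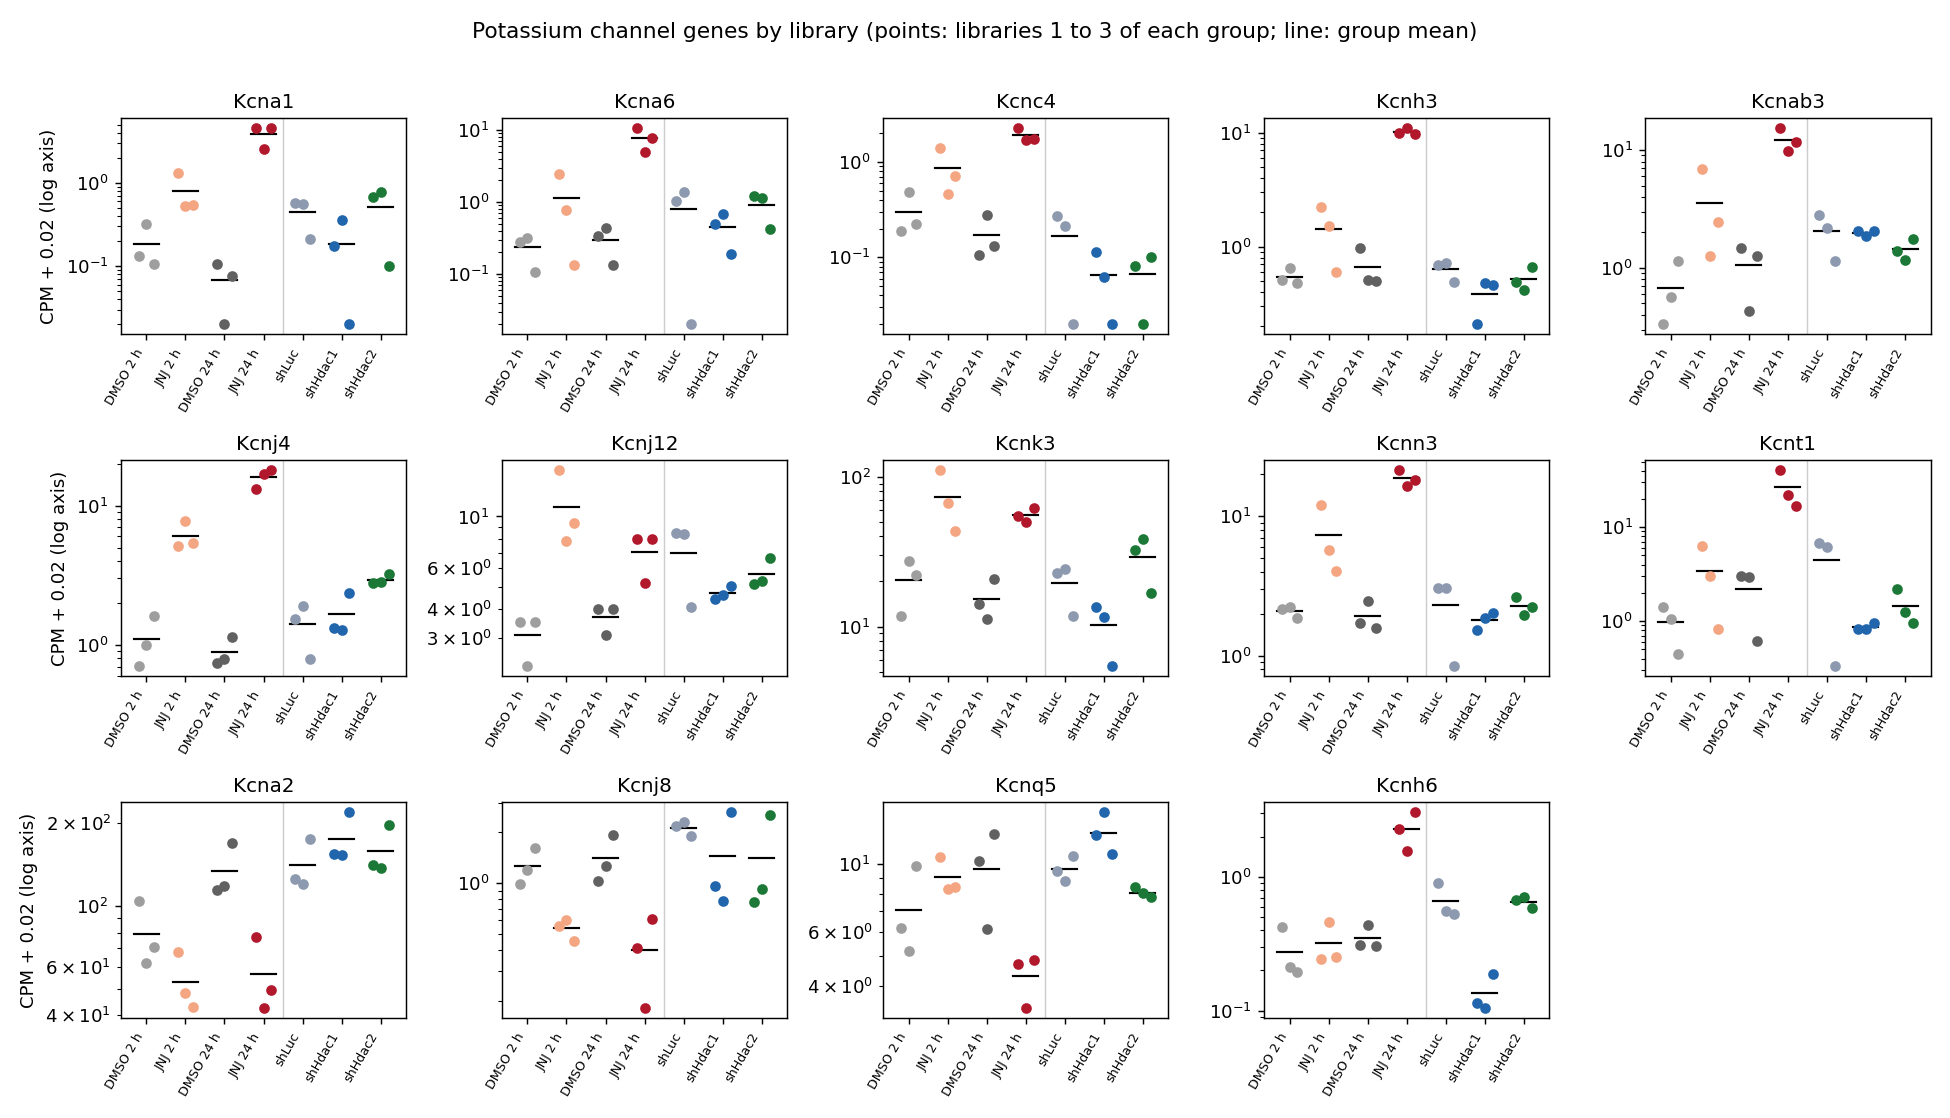
Level of 14 potassium channel genes in every library (y axis: CPM plus 0.02, log axis; x axis: the 7 groups; points are libraries 1 to 3 from left to right and the line is the group mean). In JNJ 24 h the points of Kcna1, Kcna6, Kcnh3 and Kcnj4 lie above all points of the other groups, those of Kcna2, Kcnj8 and Kcnq5 lie below DMSO 24 h, and Kcnh6 is lowest in shHdac1.

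Of the inward rectifiers, 2 of 10 tested rose at 24 h and 1 fell, beside 18.1% and 15.1% of all genes. Kcnj4, a strong rectifier of neurons, had the smallest adjusted p of the channel genes in both JNJ comparisons. It was at 0.684, 0.979 and 1.58 CPM in DMSO 2 h and already at 5.07, 7.68 and 5.40 CPM in JNJ 2 h (log2 fold change 2.48 ± 0.35 (SE), adjusted p = 0.00111). At 24 h it was at 0.720, 0.777 and 1.13 CPM with DMSO and 13.1, 16.7 and 17.9 CPM with JNJ (log2 fold change 4.18 ± 0.38 (SE), adjusted p = 3.18e-05). No library of JNJ overlapped one of DMSO at either time. Kcnj12, a strong rectifier of muscle and neurons, rose at 2 h from 3.50, 2.26 and 3.51 to 15.8, 7.83 and 9.35 CPM (log2 fold change 1.83 ± 0.34 (SE), adjusted p = 0.00397). At 24 h it went from 4.00, 3.08 and 4.01 to 7.98, 5.16 and 7.96 CPM (log2 fold change 0.93 ± 0.33 (SE), adjusted p = 0.0454), a call lost in 6 of 16 other settings, among them leaving out any 1 DMSO 24 h library or JNJ 24 h library 1 or 3.

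Kcnj8, the pore of an ATP-sensitive channel of mural cells, fell at 24 h, from 1.01, 1.24 and 1.92 to 0.389, 0.160 and 0.591 CPM (log2 fold change -1.87 ± 0.50 (SE), adjusted p = 0.0121). The call was lost without DMSO 24 h library 3 or JNJ 24 h library 2. Kcnj8 is one of 5 genes listed as markers of mural cells and fibroblasts, whose sum was 2.13 to 4.30 CPM in DMSO 24 h and 9.34 to 25.5 CPM in JNJ 24 h. In that list Col1a1 and Rgs5 rose (adjusted p = 0.00103 and 0.00145) while Kcnj8 fell; none of the 5 was at 0 in every library of a group, and the part of such cells in the result was not tested. Kcnj10, a rectifier of astrocytes, was uneven within the groups, at 16.8, 8.45 and 0.863 CPM in DMSO 2 h and 0.547, 13.8 and 0.508 CPM in DMSO 24 h, and was not called at 24 h (adjusted p = 0.66). The 6 astrocyte markers, Kcnj10 among them, summed to 231 to 268 CPM in DMSO 24 h and 115 to 144 CPM in JNJ 24 h, most of it Slc1a3, while Gja1, Aqp4 and Aldh1l1 were under 1 CPM in every library.

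Of the K2P leak channels, 2 of 8 tested rose at 24 h, beside 18.1% of all genes. Kcnk3 codes for TASK-1, an acid-sensitive leak channel. It went from 11.7, 27.2 and 22.0 to 110.4, 66.6 and 43.2 CPM at 2 h (log2 fold change 1.85 ± 0.36 (SE), adjusted p = 0.00547) and from 14.1, 11.2 and 20.7 to 54.8, 50.2 and 61.9 CPM at 24 h (log2 fold change 1.86 ± 0.36 (SE), adjusted p = 0.00213). The lowest JNJ library exceeded the highest DMSO library at each time, and the change was of like size at both. Kcnk12, a gene of the THIK group, rose at 24 h from 0.489, 1.35 and 0.395 to 4.41, 4.07 and 5.24 CPM (log2 fold change 2.61 ± 0.66 (SE), adjusted p = 0.00886). Summed over the K2P genes, the level was 25.7 ± 8.00 CPM in DMSO 24 h and 70.0 ± 9.54 CPM in JNJ 24 h. Most of each sum was Kcnk3, with means of 15.3 and 55.6 CPM. In the RefSeq gene order Kcnk5 and Kcnk16 are neighbours on chromosome 14; Kcnk5 was not called and Kcnk16 was too low to test.

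Among the calcium- or sodium-activated genes, 3 of 8 tested rose at 24 h and none fell, beside 18.1% and 15.1% of all genes. Kcnt1, the sodium-activated channel Slack, was at 2.99, 2.90 and 0.593 CPM in DMSO 24 h and 40.3, 22.2 and 16.8 CPM in JNJ 24 h (log2 fold change 3.61 ± 0.74 (SE), adjusted p = 0.00289). Kcnn3, a small-conductance calcium-activated (SK) channel gene, was at 2.14, 2.20 and 1.84 CPM in DMSO 2 h and 12.0, 5.74 and 4.04 CPM in JNJ 2 h (log2 fold change 1.82 ± 0.37 (SE), adjusted p = 0.00688). It then stood at 1.70, 2.43 and 1.55 CPM in DMSO 24 h and 21.3, 16.5 and 18.2 CPM in JNJ 24 h (log2 fold change 3.30 ± 0.39 (SE), adjusted p = 0.000118), so JNJ was clear of DMSO at both times. Kcnn1, also an SK gene, rose at 24 h from 5.87, 5.80 and 3.78 to 11.3, 17.5 and 13.9 CPM (log2 fold change 1.46 ± 0.30 (SE), adjusted p = 0.00309). Kcnn2 was not called at 24 h (log2 fold change -0.68, adjusted p = 0.0609). Per length, Kcnn2 made up 75.2% of the SK and IK family in DMSO 24 h (range 61.6% to 84.7%) and 39% in JNJ 24 h (29.3% to 46.4%). Kcnn3 went from 2.66% to 21.7% and Kcnn1 from 16.4% to 37.8% of the family over the same groups. Kcnma1, the large-conductance (BK) channel, was not called (adjusted p = 0.552).

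Of the accessory genes, 2 of 9 tested rose at 24 h, beside 18.1% of all genes. Both code for Kv beta subunits, which bind the inner face of Kv1 channels. Kcnab3 was at 1.47, 0.414 and 1.24 CPM in DMSO 24 h and 15.3, 9.80 and 11.6 CPM in JNJ 24 h (log2 fold change 3.55 ± 0.67 (SE), adjusted p = 0.00177). At 2 h it went from 0.313, 0.544 and 1.12 to 6.86, 1.24 and 2.42 CPM (log2 fold change 2.41 ± 0.66 (SE), adjusted p = 0.0291), a call lost without JNJ 2 h library 1 and without DMSO 2 h library 1 or 2. Kcnab2 rose at 24 h from 16.2, 9.03 and 13.6 to 39.1, 34.3 and 47.5 CPM (log2 fold change 1.64 ± 0.34 (SE), adjusted p = 0.00302). Kcnab1, the other member, was not called (log2 fold change -1.42, adjusted p = 0.0812). The KChIP genes Kcnip1, Kcnip2 and Kcnip3, partners of Kv4, were not called at either time, nor was Kcne1l (adjusted p = 0.567 at 24 h). The non-coding Kcnq1ot1 and Kcnd3os were not called at 24 h (adjusted p = 0.495 and 0.556). The sources do not say whether the counting used the strand. Where these RNAs overlap Kcnq1 and Kcnd3, and Kcnmb1 overlaps Kcnip1, the gene a read came from is therefore uncertain.

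Same-numbered DMSO and JNJ libraries deviated together at 24 h, so a fit with the replicate number as a block was made as well. With the block 34 channel genes were called at 24 h, 23 higher and 11 lower, while 24.3% of all genes rose and 21.6% fell. The block over all 12 libraries added calls for Kcnc1 and Kcnk6, which rose, and for Kcnab1, Kcnb2, Kcnj16, Kcnj3, Kcnk1, Kcnn2, Kcnq3 and Kcns2, which fell. Kcnk1, a K2P gene, is an example. It was at 0.921, 0.673 and 6.32 CPM in DMSO 24 h and 0.441, 0.288 and 2.21 CPM in JNJ 24 h, lower in each numbered pair.

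**Figure D5:**
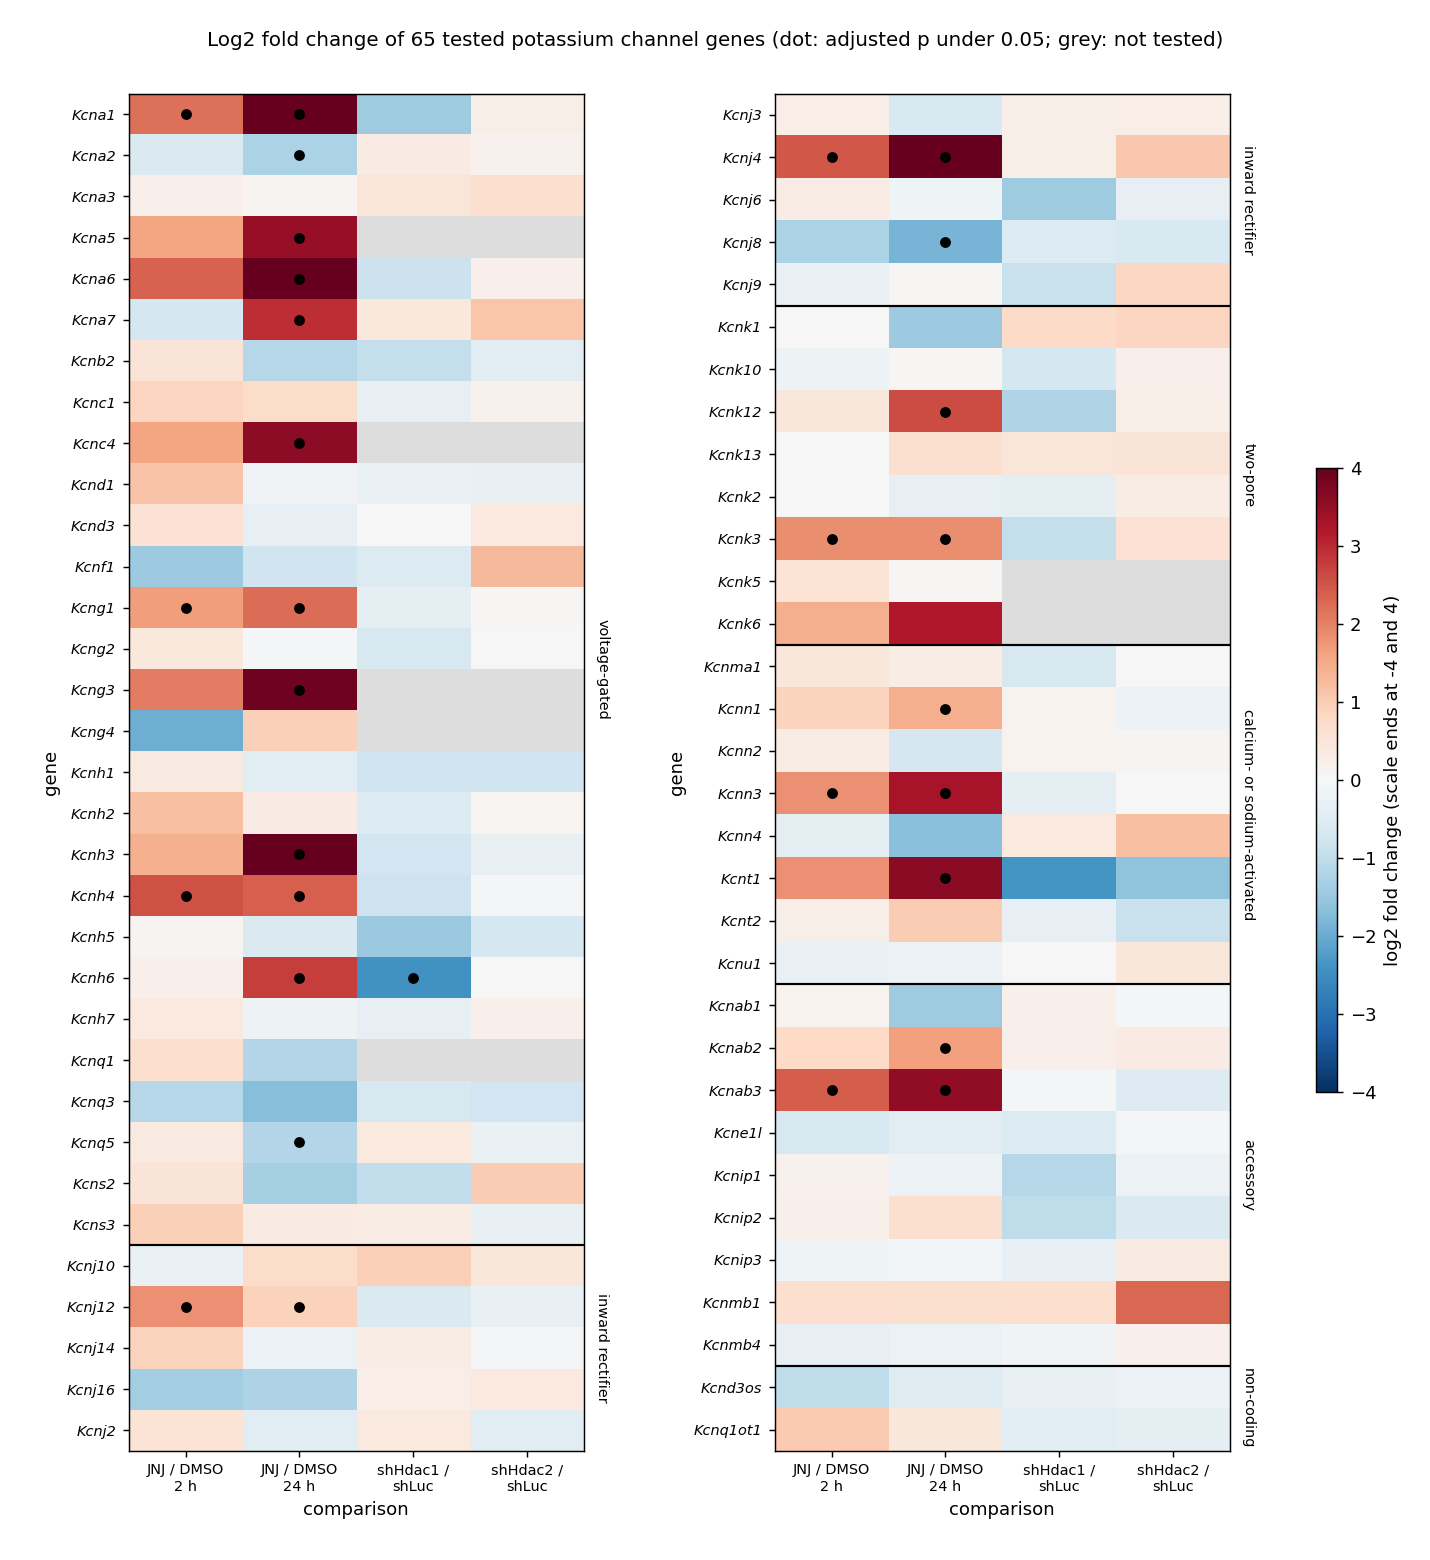
Log2 fold change of 65 of the 69 genes tested for JNJ, with genes as rows by class and 4 comparisons as columns (red: higher, blue: lower, colours end at a log2 change of 4 either way; black dot: adjusted p under 0.05; grey: not tested). The 2 JNJ columns hold 8 and 22 dots spread over all protein-coding classes, and the hairpin columns hold 1, for Kcnh6 in shHdac1.

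The effect of JNJ at 24 h minus that at 2 h was called for 3 channel genes, all higher: Kcna1 (log2 difference 4.06, adjusted p = 0.0471), Kcna7 (3.64, adjusted p = 0.041) and Kcnh3 (2.56, adjusted p = 0.0448). Among all genes 2.51% were called higher and 1.73% lower in this comparison (363 and 251 genes, 572 and 127 with upper-quartile scaling, and 512 and 129 with library totals alone). No channel gene was called when any 1 of 9 of the 12 libraries was left out (DMSO 2 h libraries 1 and 2, JNJ 2 h library 2, and each DMSO 24 h and JNJ 24 h library). Between DMSO 24 h and DMSO 2 h the edgeR test called 0 channel genes and 0% of all genes. At an unadjusted p under 0.05 there were 5 channel genes and 1417 genes in all, and DESeq2 called 0 channel genes, beside 4 genes higher and 12 lower.

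The hairpins were checked on their targets. Hdac1 was at 88.8, 94.8 and 101 CPM in shLuc and 32.6, 28.6 and 30.5 CPM in shHdac1 (log2 fold change -1.63 ± 0.09 (SE), adjusted p = 0.000165). Hdac2 was at 309, 301 and 344 CPM in shLuc and 49.1, 48.1 and 53.9 CPM in shHdac2 (log2 fold change -2.66 ± 0.09 (SE), adjusted p = 3.49e-06). Each target fell in all 3 libraries of its hairpin.

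Few channel genes were called with a hairpin against Hdac1 or Hdac2 alone. Against shLuc, shHdac1 gave 1 lower call of 62 tested, Kcnh6, and 0 higher, where 0.595% of all genes fell and 0.154% rose. At an unadjusted p under 0.05 there were 12 in either direction and 1687 of 13612 genes in all, and DESeq2 called 6, 1 higher and 5 lower, beside 175 genes higher and 405 lower. Kcnh6 was at 0.884, 0.540 and 0.506 CPM in shLuc, 0.0938, 0.0841 and 0.167 CPM in shHdac1 and 0.653, 0.683 and 0.566 CPM in shHdac2. The shHdac1 libraries lay below all others (log2 fold change -2.42 ± 0.44 (SE), adjusted p = 0.0489 against shLuc). This rests on 10 counts against 48 over 3 libraries each, a ratio of 0.183 (95% counting interval 0.0827 to 0.367), and the call was lost in 9 of 15 other settings, among them leaving out shLuc library 1 or 2 or any 1 shHdac1 library. Against shHdac2, where 1.17% of all genes were lower and 0.889% higher in shHdac1, Kcnh6 was again the only call (log2 fold change -2.40 ± 0.44 (SE), adjusted p = 0.0277). It was lost without shHdac1 library 1 or 2 or any 1 shHdac2 library, and without shHdac1 library 3 Kcnip3 was called lower as well. The same gene had risen with JNJ at 24 h.

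Between shHdac2 and shLuc the edgeR test called 0 of 62 channel genes, beside 1.68% of all genes. At an unadjusted p under 0.05 there were 7 and 2158 genes in all, and DESeq2 called 1, Kcnh1, as lower in shHdac2, beside 411 genes higher and 481 lower. The median log2 change of the channel genes was -0.34 in shHdac1 and 0.06 in shHdac2, against 0.0017 and -0.01 over all genes tested.

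Library 3 of the shRNA groups stood apart from libraries 1 and 2. The chi-square per degree of freedom between libraries 1 and 2 was 3.58 in shLuc, 4.25 in shHdac1 and 8.76 in shHdac2, above sampling noise, and 44.9 to 74.9 between either and library 3. In shLuc, library 3 was the lowest for 48 of the 62 tested channel genes. Kcnt1 shows it, at 6.82, 6.18 and 0.312 CPM in shLuc, 0.813, 0.799 and 0.937 CPM in shHdac1 and 2.18, 1.22 and 0.930 CPM in shHdac2. Without shLuc library 3, 8 channel genes were lower in shHdac1 (Kcnb2, Kcng2, Kcnh1, Kcnh5, Kcnh6, Kcnj12, Kcnj6 and Kcnt1) and 2 were lower in shHdac2 (Kcnh1 and Kcnt1). Calls over all genes rose as well in that setting, to 602 higher and 910 lower of 13802 for shHdac1 and to 588 higher and 624 lower for shHdac2.

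Same-numbered shRNA libraries deviated together in all 3 comparisons. With the replicate block, shHdac1 against shLuc gave 10 calls, 2 higher (Kcna2 among them) and 8 lower (among them Kcnb2, Kcnh2, Kcnh5, Kcnh6, Kcnip2, Kcnj6 and Kcnk3), while 3.84% of all genes were called. Kcnk3 stood at 22.6, 24.0 and 11.8 CPM in shLuc, 13.5, 11.6 and 5.42 CPM in shHdac1 and 32.3, 38.2 and 16.7 CPM in shHdac2. In each numbered pair it was lower in shHdac1 and higher in shHdac2 than in shLuc, and with the block its log2 change was -0.96 (adjusted p = 0.00849) and 0.56 (adjusted p = 0.0352). Kcnk3 was the only blocked call of shHdac2 against shLuc, where 5.88% of all genes were called. With the block fitted in the compared groups only, 0 channel genes were called in either hairpin comparison with shLuc, and all genes gave 0 calls of 13289 for shHdac1 and 24 higher and 24 lower of 13446 for shHdac2. Between shHdac1 and shHdac2 the block gave 9 calls, 1 higher (Kcnq5) and 8 lower (among them Kcnf1, Kcnh2, Kcnh6, Kcnip3, Kcnj6, Kcnk3 and Kcns2), beside 6.51% of all genes.

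Without the block, none of the genes that rose with JNJ at 24 h was called higher in shHdac1 or shHdac2 against shLuc, and with it Kcnk3 was called higher in shHdac2. Of the 21, 18 were tested in the shRNA libraries, and 4 of the 18 had a log2 change above 0 in shHdac1 (22.2%; median -0.51) and 8 in shHdac2 (44.4%; median -0.01). Of the 2186 tested genes of any kind that rose with JNJ at 24 h, 44% were above 0 in shHdac1 and 61.1% in shHdac2. Kcnj4 was at 1.52, 1.89 and 0.779 CPM in shLuc, 1.31, 1.26 and 2.34 CPM in shHdac1 and 2.77, 2.81 and 3.19 CPM in shHdac2. All 3 shHdac2 libraries were above shLuc, but the change was not called (log2 fold change 1.06, adjusted p = 0.212), and Kcnj4 was named here after its values were seen.

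Some channel genes followed the library number in every group. Kcnk1 was highest in library 3 of all 7 groups, with 2.21 to 6.59 CPM there and 0.288 to 1.40 CPM in the other libraries. Kcnk5 followed the same pattern, with 0.350 to 0.709 CPM in library 3 and at most 0.173 CPM elsewhere. Kcnh4, Kcnip2 and Kcnq1ot1 were lowest in library 3 of all 7 groups. These are 2 and 3 of 69 channel genes (2.90% and 4.35%), where 5.39% and 4.49% of 14532 genes did so. For numbers 1 and 2 no channel gene did.

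Genes that work with potassium channels or move potassium were described from a separate list of 37, of which 32 were tested for JNJ. At 2 h 5 rose and none fell, and 11 had an unadjusted p under 0.05 in either direction. The median log2 change was 0.53, where 9.11% of all genes rose and the median was 0.03. At 24 h 9 rose and 2 fell with a median of 0.21, where 18.1% of all genes rose, 15.1% fell and the median was 0.01. The HCN genes carry a cation current opened by hyperpolarisation, and Hcn2 rose at both times (2.51-fold, adjusted p = 0.00276, and 3.59-fold, adjusted p = 0.000167). At 24 h its libraries were at 25.7, 18.6 and 21.1 CPM with DMSO and 78.9, 70.8 and 85.2 CPM with JNJ. Hcn4 rose from 0.0864, 0.129 and 0.169 to 0.933, 1.99 and 3.11 CPM at 24 h (log2 fold change 3.92 ± 0.57 (SE), adjusted p = 0.000374).

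Atp1b2, a beta subunit of the sodium-potassium pump, which sets up the potassium gradient, rose at 2 h (adjusted p = 0.011), as did Lrrc38, an auxiliary subunit of BK channels (adjusted p = 0.0146). At 24 h Lrrc38 rose too (adjusted p = 0.00155) and Nedd4l, a ubiquitin ligase of channels, fell (log2 fold change -0.60, adjusted p = 0.0254).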

How the data were processed

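RNA from 21 libraries of SMB21 cells was sequenced, and the authors deposited raw counts per gene. The submitters' processing notes name STAR 2.5.1b and mm9. Not stated were the annotation, the use of strand and the treatment of reads with several matches, so overlapping or near-identical genes are uncertain. Groups followed the labels, with 3 libraries each. The potassium channel genes, their families and the partner and marker lists were chosen with earlier results of these data known.

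Separate fits were made for the drug experiment (12 libraries) and the hairpin experiment (9 libraries) in R 4.3.3 with edgeR 4.0.16 and limma 3.58.1: filterByExpr (minimum count 10, minimum total count 15), TMM scaling, quasi-likelihood tests with group as the only term, and Benjamini-Hochberg adjustment over all genes tested. The procedure was tested on simulated data with 200 changed genes per fit. CPM values use TMM-scaled totals within each fit and are not scaled between the fits. Median depth was 31426312 counts. Counting intervals and the floor of 3 counts cover counting error only. Alternatives were DESeq2 1.42.0, other scalings and filters, other sets of libraries in the fit, each library left out, and a replicate block. A block in the compared groups only was added after seeing the data.

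Replicate numbers come from the labels. They were taken to pair libraries where deviations from the group means correlated above 0.1 in all 3 pairs. Correlations were 0.566, 0.656 and 0.609 for JNJ against DMSO at 24 h, 0.305, 0.245 and 0.352 for shHdac1 against shLuc, 0.461, 0.253 and 0.464 for shHdac2 against shLuc, and 0.599, 0.487 and 0.798 for shHdac1 against shHdac2. The pairing was not met at 2 h (lowest -0.005) or between the DMSO times (lowest -0.219).

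Values in every library were given by rule for called genes without overlap and with a mean of at least 1 CPM in the fit: up to 12 higher and 8 lower per JNJ comparison, up to 5 each way in other comparisons, each gene called with a hairpin, and the 6 highest per length in DMSO 2 h. Partner genes were named up to 4 each way by p. Other genes were named, after their values were seen, to complete a family or show library differences. Exon lengths came from GENCODE vM21 (GRCm38), and gene order and promoters from RefSeq (GRCm38.p6). Values of some genes that entered the counts are not reported here, also where this rule selects them.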

Additional observations from a re-analysis of the deposited data

Results flagged for a closer look

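For Kcnh3, Kcna7 and Kcna1 the effect of JNJ differed between 24 h and 2 h by the edgeR test of the difference itself. The log2 difference was 2.56 for Kcnh3, 3.64 for Kcna7 and 4.06 for Kcna1. The call was lost in 10 of 20 other settings for Kcnh3, 11 of 18 for Kcna7 and 10 of 20 for Kcna1. At 2 h Kcna7 rests on 3, 4 and 2 counts with DMSO and 1, 1 and 3 with JNJ. For Kcnh6 the effect of the Hdac1 hairpin differed from that of the Hdac2 hairpin by a log2 difference of -2.40 in the same kind of test. That call was lost in 5 of 15 other settings. The causes were not tested.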

How the results depend on the processing

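Over 43 called results for single genes and 691 alternative settings, 594 kept the call, 97 kept the direction but lost the call, and none reversed. In all, 24 results kept the call in every setting run. These totals are not of channel genes alone: they include the called results of Hdac1 and Hdac2, some of them among the 24. Counts of called channel genes moved more. Under DESeq2 they were 14 at 2 h (9 in the report), 6 for the difference between times (3), 6 each for shHdac1 against shLuc and against shHdac2 (1 each), and 1 for shHdac2 against shLuc (0). All genes gave 823 higher and 655 lower calls under DESeq2 for the difference between times, and 360 and 497 for shHdac1 against shHdac2. Fitting only the groups compared gave 5 at 2 h and 0 for shHdac1 against shLuc. In that setting all genes gave 476 higher and 174 lower at 2 h, and 1 and 4 for shHdac1 against shLuc. Upper-quartile scaling, which moved the median log2 change of all genes to 0.12 at 24 h, gave 5 for the difference between times, and a single fit of all 21 libraries gave 7 there and 0 for shHdac1 against shLuc. Over all genes the single fit gave 813 higher and 909 lower for the difference, and 2 and 6 for shHdac1 against shLuc. Without the filter shHdac1 against shLuc gave 0, and at 1 CPM or more in 3 libraries shHdac1 against shHdac2 gave 0. All genes gave 26 higher and 71 lower in the former setting, and 134 and 180 in the latter. Leaving out 1 library gave 6 to 17 at 2 h, 18 to 24 at 24 h, 0 to 3 for the difference between times, 0 to 8 for shHdac1 against shLuc, 0 to 2 for shHdac2 against shLuc and 0 to 2 for shHdac1 against shHdac2. With the replicate block, the counts were 34 at 24 h, 10 for shHdac1 against shLuc, 1 for shHdac2 against shLuc and 9 for shHdac1 against shHdac2, where the pairing held. In the comparisons where the pairing was not met, the block gave 18 at 2 h (16 higher, 2 lower), 12 for the difference between times (9 higher, 3 lower) and 1 between the DMSO times (higher at 24 h). Over all genes the block gave 2103 higher and 1352 lower at 2 h. It gave 1142 higher and 990 lower for the difference between times, and 80 and 28 between the DMSO times. A replicate block in the compared groups only, added later, gave 40 at 24 h, 0 for shHdac1 and 0 for shHdac2 against shLuc, and 29 for shHdac1 against shHdac2. All-gene calls in that setting were 4565 higher and 4383 lower of 14096 at 24 h, and 1881 higher and 2205 lower of 13429 for shHdac1 against shHdac2. The cause of these moves was not tested. Genes near 0.278 CPM rest on few counts, and 27 of the 96 could not be tested at this depth.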
